A study of Mus musculus with 6 samples.

Results

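The 7 genes described here are Mcpt8, Prss34, Cpa3, Hdc, Cd200r3, Cd9 and Gata2, a set of granule enzymes and identity genes of mouse basophils, out of 55401 genes in the count table. They were listed by symbol with the differences between the 2 sets of libraries already known, so the comparison of the sets is given for them as a description only. The data are RNA-seq counts of 6 libraries from wild-type mice, named as sets A and B with 3 libraries each. The cells were sorted as live CD45+ cells without lineage markers that carried CD49b and FcεRIα or IgE. In the study's model of atopic dermatitis, MC903, a vitamin D analogue, was put on both ears daily (2 nmol in 10 µL ethanol, days 0 to 6), and controls received ethanol alone. The labels do not say which set received MC903. They name blood, while the design text names ear skin. The protocol gives Smart-seq2 as the method, but each sample's description has 10x Genomics, so it is uncertain whether a count stands for a read or a molecule. The protocol speaks of pooled RNA, and no label ties a library to an animal.

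Basophils are rare granulocytes that bind IgE through a high-affinity receptor and release stored and newly made mediators when it is crosslinked. In mice their granules hold the serine proteases encoded by Mcpt8 and Prss34, the carboxypeptidase encoded by Cpa3, which mast cells share, and histamine made by the enzyme encoded by Hdc. Gata2 encodes a zinc finger transcription factor needed for basophil and mast cell development. Cd200r3 encodes an activating receptor on the surface of basophils and mast cells, and Cd9 a tetraspanin found on basophils, platelets and several other blood cells.

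The libraries summed to 46137963 to 63956911 counts, so that 3 counts corresponded to 0.0469 to 0.0650 CPM, where CPM is the count divided by the library's total and put on the scale of its name. All 7 genes passed the filter on low counts. The sort used surface proteins, which these counts do not measure. RNA of Fcer1a, which encodes the receptor chain that binds IgE, was close to 0 in A and present in every B library. The edgeR comparison of the sets, described below, did not call Fcer1a (adjusted p = 0.508). It had 4, 0 and 0 counts in A replicates 1, 2 and 3 and 10736, 5584 and 2681 in B. Genes of other blood cells were abundant in both. The 8 monocyte and macrophage genes listed for comparison summed to 34982 to 42147 CPM in A against 24574 to 33012 CPM in B. Most of that was Lyz2, at 32015 to 39756 CPM in A and 22600 to 29746 CPM in B. The 7 basophil genes summed to 973 to 1519 CPM in A against 2142 to 4053 CPM in B. In A most of their sum was Cd9, at 864 to 1134 CPM. Mcpt8, Prss34, Cpa3 and Cd200r3 together had 1.17 to 2.36 CPM in A against 1023 to 2232 CPM in B. In such bulk libraries fewer cells of a type and less RNA per cell cannot be told apart.

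The genes fell into 3 kinds of pattern. Mcpt8, Prss34, Cpa3 and Cd200r3 were abundant in B and close to 0 in A. Hdc was higher in B but present in every A library. Cd9 and Gata2 overlapped between the sets, with the higher mean in A. The CPM values of the sets did not overlap for 5 of the 7 genes, all 5 with higher values in B, where 10.2% of the 9196 genes tested had no overlap and higher values in B and 3.91% had no overlap and lower values. A fitted log2 difference of at least 9 was found for 4 of the 7, and for 2.71% of the genes tested. The genes were chosen on this contrast, so nothing is read from these counts.

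**Figure D1:**
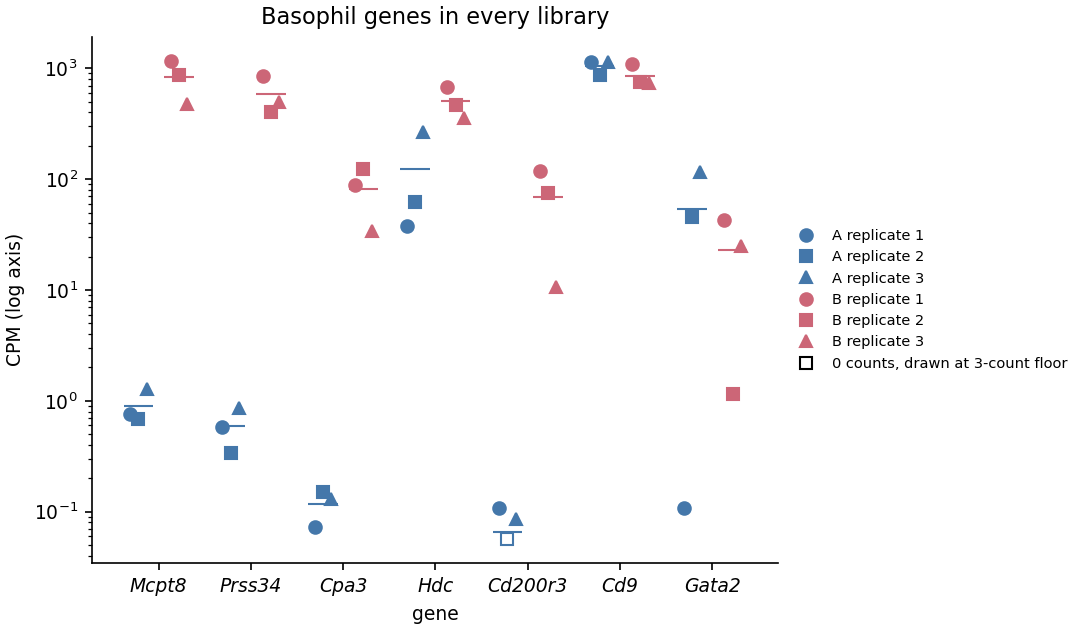
CPM of the 7 genes (log axis) in the 3 libraries of set A (blue) and the 3 of set B (red). Symbols mark the replicate, short lines the mean of 3 libraries, and the open symbol a count of 0 drawn at 3 counts. Mcpt8, Prss34, Cpa3 and Cd200r3 lie under 2 CPM in A and above 10 CPM in B, while Cd9 and Gata2 overlap between the sets.

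Among the granule proteases, Mcpt8 (ENSMUSG00000022157, chromosome 14) had 1173, 872 and 478 CPM in B replicates 1, 2 and 3. In A it had 42, 36 and 59 counts, or 0.762, 0.681 and 1.28 CPM. Mcpt8 averaged 841 ± 349 CPM over B (SD, n = 3) against 0.907 ± 0.324 CPM over A, a fitted log2 difference of 9.76 (SE 0.58). The A libraries lay close together and far below all of B, where replicate 3 was the lowest.

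Prss34 (ENSMUSG00000056399, chromosome 17) had 851, 401 and 499.99 CPM in B and 32, 18 and 40 counts in A, which were 0.581, 0.340 and 0.867 CPM. Its fitted log2 difference was 9.84 (SE 0.67). In B its lowest library was replicate 2, not replicate 3 as for Mcpt8. Cpa3 (ENSMUSG00000001865, chromosome 3) had 88.7, 122.8 and 34.0 CPM in B and 4, 8 and 6 counts in A, with a fitted log2 difference of 9.31 (SE 1.901). Its highest library in B was replicate 2, the one lowest in Prss34.

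Cd200r3 (ENSMUSG00000036172, chromosome 16) had 119.6, 75.1 and 10.6 CPM in B and 6, 0 and 4 counts in A, and its fitted log2 difference was 9.85 (SE 2.72). It varied most of these 4 genes in B, by 11.3-fold between the highest and the lowest library, against 2.45-fold for Mcpt8, 2.12-fold for Prss34 and 3.61-fold for Cpa3. The count of 0 in A replicate 2 allows up to 3 counts, or 0.0567 CPM, by counting error alone if 1 fragment adds 1 count. If 1 fragment adds several counts, this bound is too low. Of the 9196 genes tested, 188 had under 2 CPM in every A library and at least 10 CPM in every B library, and 6 had the reverse. At 300 CPM or more in every B library only Mcpt8 and Prss34 remained, and 0 genes had the reverse. That cut was set with earlier results of these data known, and what remains depends on it. Ly6a, also under 2 CPM in every A library, had 297, 275 and 214 CPM in B replicates 1, 2 and 3.

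The 250 bases upstream of the annotated starts of these 4 genes are shown because the genes share the A and B pattern. The sequences are RefSeq's, build GRCm38.p6, read 5′ to 3′ on the strand of the gene. The build behind the counts is not stated, and no count rests on these positions. Capitals mark matches, on either strand, to motifs of factor families known in basophils: for GATA factors AGATAA or TGATAA, for C/EBP factors TTGCNNAA, for RUNX factors TGTGGT and for STAT5 TTCNNNGAA.
Mcpt8 (chr14:56085198-56085447, minus strand): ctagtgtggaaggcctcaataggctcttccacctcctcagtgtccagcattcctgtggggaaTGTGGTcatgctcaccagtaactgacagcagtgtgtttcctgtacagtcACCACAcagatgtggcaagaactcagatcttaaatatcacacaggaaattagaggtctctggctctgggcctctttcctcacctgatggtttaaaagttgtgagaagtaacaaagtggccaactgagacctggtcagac
Prss34 (chr17:25298144-25298393, plus strand): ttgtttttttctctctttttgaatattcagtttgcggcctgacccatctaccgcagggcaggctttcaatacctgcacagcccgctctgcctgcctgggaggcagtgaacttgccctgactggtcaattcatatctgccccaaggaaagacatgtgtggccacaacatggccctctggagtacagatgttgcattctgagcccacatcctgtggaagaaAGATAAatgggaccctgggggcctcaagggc
Cpa3 (chr3:20242182-20242431, minus strand): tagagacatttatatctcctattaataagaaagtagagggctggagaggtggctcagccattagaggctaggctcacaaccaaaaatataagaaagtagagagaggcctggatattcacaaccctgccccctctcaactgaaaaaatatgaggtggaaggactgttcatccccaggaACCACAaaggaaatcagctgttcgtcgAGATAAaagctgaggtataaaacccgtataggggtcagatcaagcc
Cd200r3 (chr16:44943428-44943677, plus strand): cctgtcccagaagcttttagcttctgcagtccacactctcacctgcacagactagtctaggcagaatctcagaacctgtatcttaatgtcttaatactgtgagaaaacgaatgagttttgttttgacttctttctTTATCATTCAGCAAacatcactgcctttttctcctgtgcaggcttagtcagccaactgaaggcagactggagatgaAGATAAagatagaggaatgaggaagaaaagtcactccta

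A GATA match began 31 bases before the start in Prss34, 46 bases before it in Cpa3, and 39 and 115 bases before it in Cd200r3. The Mcpt8 window held no GATA match and had RUNX matches that began 188 and 139 bases before the start. Cpa3 had a RUNX match at 73 bases, and Cd200r3 had a C/EBP match at 109 bases, directly beside its farther GATA match and not overlapping it. All 7 genes had an entry, with 8 windows in all since Gata2 has 2 starts. The windows of Hdc, Cd9 and Gata2 held none of the 4 motifs, and 0 of the 8 windows held the STAT5 motif. Over all 32851 windows in the table, 16.6% held a GATA match, 14.0% a RUNX match, 9.56% a C/EBP match and 7.02% a STAT5 match. A match describes the letters and not a bound site.

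Within the B libraries the levels of the genes were set against Mcpt8 as counts per kilobase of transcript, with the median length of the protein-coding transcripts of GENCODE M21 as the length. Prss34 stood at 0.497, 0.315 and 0.717 of the Mcpt8 level in B replicates 1, 2 and 3, a mean log2 ratio of -1.05 ± 0.59 (SD, n = 3). Hdc stood at 0.204, 0.187 and 0.262 of Mcpt8, a mean log2 ratio of -2.21 ± 0.25. Cpa3 stood at 0.0436, 0.0813 and 0.0411 of Mcpt8, a mean log2 ratio of -4.25 ± 0.54. These 3 genes were below Mcpt8 per length in every B library, and Hdc kept the narrowest range of the 3.

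Cd200r3 stood at 0.0697, 0.0589 and 0.0152 of the Mcpt8 level per length, a mean log2 ratio of -4.66 ± 1.20, so B replicate 3 had the least Cd200r3 for its Mcpt8. Cd200r3 has transcripts of very different lengths, and with the longest as its length the mean log2 ratio was -6.32. Without B replicate 3 it was -3.96. Cd9 stood at 0.634, 0.591 and 1.05 of Mcpt8, a mean log2 ratio of -0.45 ± 0.45. Its place relative to Mcpt8 therefore changed between B libraries, and with raw counts in place of counts per length the mean log2 ratio was 0.11, and with coding length 0.23. Gata2 stood at 0.00973, 0.000352 and 0.0138 of Mcpt8, a mean log2 ratio of -8.11 ± 2.92, which was -6.43 without B replicate 2, -8.82 without replicate 1 and -9.08 without replicate 3. Per length the order in B replicates 1 and 2 was Mcpt8, Cd9, Prss34 and Hdc, and in replicate 3 Cd9 came before Mcpt8. Cpa3 and Cd200r3 followed, in an order that differed between the libraries, and Gata2 was last in all 3. Neighbours whose order differed between libraries do not differ beyond their spread.

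**Figure D2:**
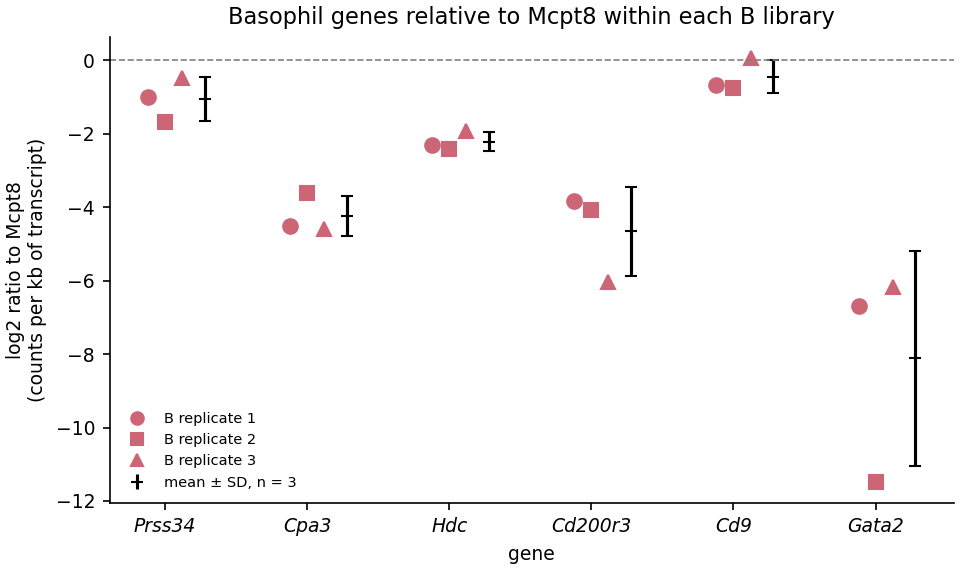
Log2 ratio of each gene to Mcpt8, as counts per kilobase of transcript, in the 3 B libraries (symbols), with the mean and SD beside them (n = 3). The dashed line marks the Mcpt8 level. Hdc shows the least spread between libraries (SD 0.25) and Gata2 the most (SD 2.92).

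How far a ratio moved between B libraries does not depend on length. Of the 21 pairs of the 7 genes, Hdc to Cd9 moved least, by 1.28-fold between the highest and lowest B library, and Mcpt8 to Hdc came next at 1.40-fold. Prss34 to Cd9 moved by 1.47-fold, Mcpt8 to Cpa3 by 1.98-fold and Mcpt8 to Prss34 by 2.27-fold. Prss34 to Cpa3 moved by 4.50-fold. Prss34 to Cd200r3 moved by 8.80-fold. The 6 pairs that hold Gata2 moved the most, by 17.5 to 152-fold.

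Fcer1a gave a further reference within the B libraries. There were 5.43, 9.23 and 11.4 Mcpt8 counts per Fcer1a count in B replicates 1, 2 and 3, and 3.94, 4.25 and 11.9 Prss34 counts. Cd200r3 had 0.554, 0.795 and 0.254 counts per Fcer1a count. Both proteases were thus highest relative to the receptor chain in B replicate 3, where Cd200r3 was lowest relative to it. Hdc, Cd9 and Gata2 were also highest there, at 8.56, 17.5 and 0.591 counts per Fcer1a count. Cpa3 was highest in replicate 2, at 1.30. Fcer1a itself was lowest in replicate 3, at 41.9 CPM against 216 and 94.4 CPM in replicates 1 and 2. The rise is therefore not particular to the proteases, and 3 libraries give no test of it.

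The few counts of the 4 genes in A were also split by gene. Mcpt8 made up 50.0%, 58.1% and 54.1% of the summed counts of the 4 genes in A replicates 1, 2 and 3, and 52.5%, 59.3% and 46.7% in B replicates 1, 2 and 3. Prss34 made up 38.1%, 29.0% and 36.7% in A and 38.1%, 27.3% and 48.9% in B. Cpa3 made up 4.76%, 12.9% and 5.50% over A, with 3.97%, 8.35% and 3.33% over B. Cd200r3 made up 7.14%, 0% and 3.67% over A, with 5.36%, 5.10% and 1.04% over B. Mcpt8 was the largest share in all libraries but B replicate 3. A replicate 2 had a larger share of Cpa3 than any other library and no Cd200r3. These shares rest on 84, 62 and 109 counts in A. Of Mcpt8 and Prss34 together, Mcpt8 took 56.8% in A replicate 1 (95% exact Clopper-Pearson interval 44.7 to 68.2%), 66.7% in A replicate 2 (52.5 to 78.9%) and 59.6% in A replicate 3 (49.3 to 69.3%). In B it took 58.0%, 68.5% and 48.9% in replicates 1, 2 and 3. The value of B replicate 1 lies inside all 3 A intervals, that of B replicate 2 inside those of A replicates 2 and 3, and that of B replicate 3 only inside that of A replicate 1. Of Mcpt8 and Cpa3 together, Mcpt8 took 81.8% in A replicate 2 (67.3 to 91.8%), an interval that holds the 87.7% of B replicate 2 but not the 93.0% and 93.4% of B replicates 1 and 3. Of Cpa3 and Cd200r3 together, Cpa3 took 100.0% in A replicate 2 (63.1 to 100.0%), above the 42.6% and 62.1% of B replicates 1 and 2, while 76.2% in B replicate 3 lay inside. For Mcpt8 and Cpa3, the intervals of A replicates 1 and 3 (79.2 to 97.6% and 81.0 to 96.5%) held all 3 B values. For Cpa3 and Cd200r3, that of A replicate 3 (26.2 to 87.8%) did too. That of A replicate 1 (12.2 to 73.8%) held the values of B replicates 1 and 2. The 100.0% of A replicate 2 rests on 8 counts. No adjustment was made for the number of comparisons, so no difference in make-up is read from A replicate 2. Such intervals cover counting error only, and they are too narrow if 1 fragment adds several counts: 5211 values over all genes were 4, against 819 of 3 and 660 of 5.

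As a share of the mean level in B, the mean level in A was 0.108% for Mcpt8, 0.102% for Prss34, 0.144% for Cpa3 and 0.0952% for Cd200r3. It was 0.0206% for Fcer1a, whose A level rests on 4 counts in 1 library. The source of these counts in A was not tested, and the fitted differences of the 4 genes depend on them.

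**Figure D3:**
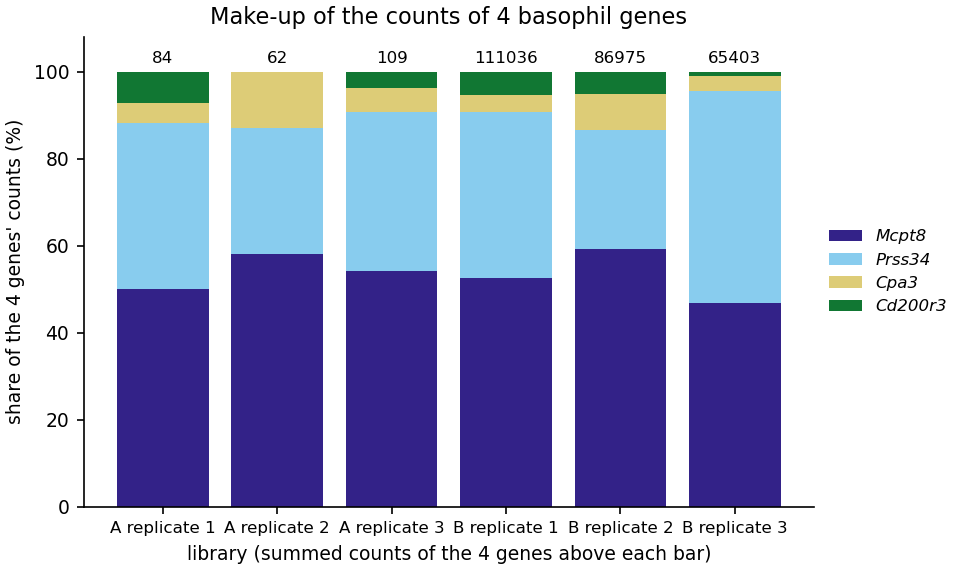
Share of each of 4 genes in their summed raw counts (%), 1 bar per library, with the summed counts above the bar. Mcpt8 makes up 46.7 to 59.3% in every library although the sums are 62 to 109 counts in A against 65403 to 111036 in B.

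Hdc (ENSMUSG00000027360, chromosome 2), which encodes histidine decarboxylase, had 38.0, 62.2 and 267 CPM in A replicates 1, 2 and 3 and 685, 467 and 359 CPM in B. The lowest B library lay above the highest A library by less than the range within either set. Hdc averaged 122 ± 126 CPM over A (SD, n = 3) against 504 ± 166 CPM over B, a fitted log2 difference of 2.00 (SE 0.74). It was 3.19 without A replicate 3. Relative to Mcpt8 per length, Hdc was at 17.4, 31.9 and 72.9 in A against 0.187 to 0.262 in B. Mcpt8 was chosen on the contrast of the sets and had 36 to 59 counts in A, so nothing is read from this ratio.

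Neutrophil genes are given beside Hdc. The 11 neutrophil markers, 10 of them with counts, summed to 2400, 7640 and 9713 CPM over A replicates 1, 2 and 3. The sums over B were 23293, 12520 and 12866 CPM. The A library with the most Hdc had the most of these markers, and so did the B library with the most Hdc, but B replicate 2 had more Hdc than replicate 3 and a lower sum. Of the 10 genes tested, 0 passed by edgeR after adjustment, and 5 had no overlap with higher values in B, where 10.2% of all genes tested did. These 5 were S100a8, Retnlg, Camp, Ngp and Ltf. Camp, Ngp and Ltf were under 2 CPM in every A library. In B replicates 1, 2 and 3 Camp had 104.6, 34.7 and 71.3 CPM and Ngp had 49.8, 40.8 and 329 CPM. Ltf had 119, 0.423 and 15.9 CPM there. Cxcr2, a chemokine receptor gene, overlapped, at 115 to 314 CPM in A and 100.3 to 366 CPM in B. S100a8, S100a9 and Retnlg were the most abundant of the 11, at 1259 to 5378 CPM, 457 to 2931 CPM and 422 to 723 CPM in A, and at 7251 to 13750 CPM, 2575 to 5780 CPM and 1523 to 1930 CPM in B. Ly6g, a defining neutrophil surface gene, had 0 counts in every library. The part of neutrophil RNA in the Hdc values was not tested.

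Cd9 (ENSMUSG00000030342, chromosome 6) had 1129, 864 and 1134 CPM in A replicates 1, 2 and 3 and 1093, 757 and 736 CPM in B. The sets overlapped. Cd9 averaged 1043 ± 154 CPM over A (SD, n = 3) against 862 ± 201 CPM over B, with a fitted log2 difference of -0.38 (SE 0.24). It varied least of the 7 genes in B, by 1.49-fold. The 8 platelet markers summed to 1150, 1470 and 1284 CPM in A against 858, 641 and 603 CPM in B, so their sum was higher in every A library. Single genes mostly overlapped: 2 of the 7 tested had no overlap, both lower in B, where 3.91% of all genes did, and 0 passed by edgeR after adjustment. Ppbp, Pf4 and Gp9 were the most abundant. Ppbp was at 301 to 627 CPM over A and 151 to 262 CPM over B. Pf4 was at 157 to 522 CPM over A and 118 to 239 CPM over B, and Gp9 at 79.4 to 174 CPM over A and 55.4 to 175 CPM over B. The 6 B cell markers summed to 1622 to 3013 CPM in A against 2041 to 2737 CPM in B. The part of either cell type in the Cd9 values was not tested.

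Gata2 (ENSMUSG00000015053, chromosome 6) had 0.109, 45.6 and 116 CPM in A replicates 1, 2 and 3 and 42.8, 1.15 and 24.8 CPM in B. Each set had 1 library near 0, and the sets overlapped. The fitted log2 difference was -1.25 (SE 2.24) and ran from -2.06 to -0.06 when a library was left out, -0.06 being the value without A replicate 3 and -2.06 that without B replicate 1. The B library lowest in Gata2, replicate 2, held 872 CPM of Mcpt8 and the most Cpa3 of all libraries. Near-0 values were common at this level: for the 3472 genes that averaged 20 to 80 CPM over the 6 libraries, 26.3% of single values fell below 2 CPM. For the 242 genes that averaged 500 to 2000 CPM the share was 0.0%. Gata2, Cpa3 and Cd200r3 belong to the first range and Cd9 to the second.

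Genes of progenitors, where Gata2 is also used, summed to 55.6, 0.265 and 121 CPM in A against 12.5, 0.186 and 10.0 CPM in B. Kit and Meis1, which define such cells, had 0 counts in every library. Cd34 and Flt3 were highest in A replicate 3, the library with the most Gata2, at 54.6 and 66.1 CPM. Flt3 was at 22.2 CPM in A replicate 1, where Gata2 was near 0, and both genes were under 0.4 CPM in every other library. Of the 7 mast cell markers 4 had 0 counts throughout (Kit, Mcpt4, Mrgprb1 and Mrgprb2), and Tpsb2 and Tpsab1 had at most 4 counts in a library. Cma1, a mast cell chymase, made up nearly all of the rest, at 99.0, 0.0757 and 117 CPM in A against 78.0, 0.135 and 30.6 CPM in B. The part of these cells in the Gata2 values was not tested.

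**Figure D4:**
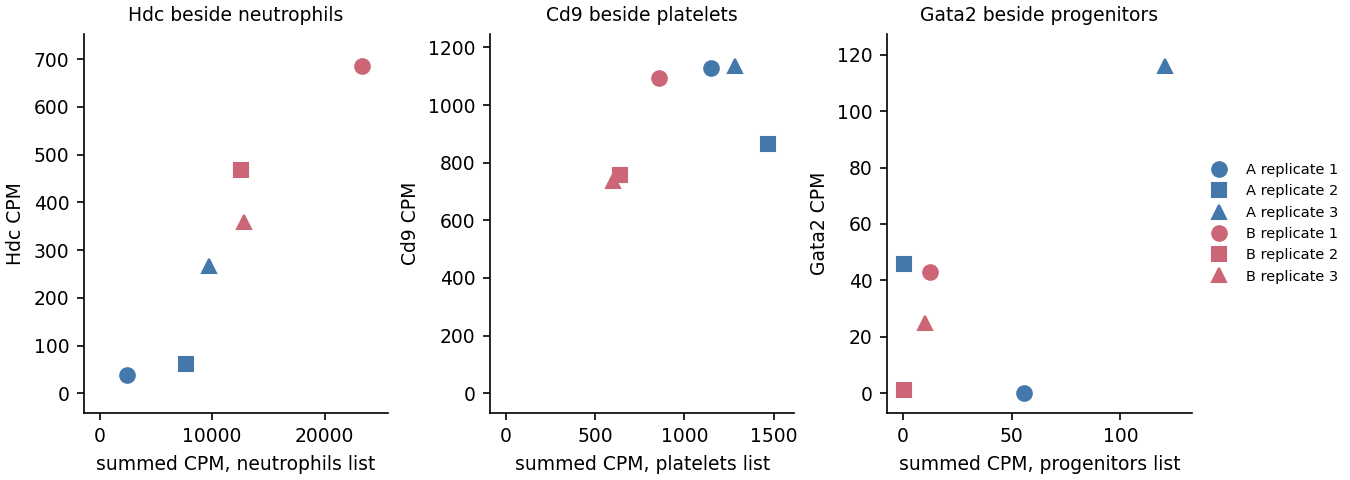
CPM of Hdc, Cd9 and Gata2 in each library beside the summed CPM of neutrophil, platelet and progenitor markers (blue A, red B, symbols the replicate). Hdc is highest in B replicate 1, at 685 CPM, where the neutrophil sum is also highest, and platelet sums are 1150 CPM or more in A and 858 CPM or less in B.

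The protease families of Mcpt8 and Prss34 showed no comparable signal. Mcpt8 lies in a cluster of granule serine protease genes, and 11 of the 14 others listed from that family, among them Mcpt1, Mcpt2, Mcpt4, Mcpt9 and the cathepsin gene Ctsg, had 0 counts in all 6 libraries. The remainder were Cma1, Gzmb, a granzyme of cytotoxic cells, and Gzmc. In B these reached 33.5, 30.4 and 6.58 CPM per kilobase on average, against 1006 CPM per kilobase for Mcpt8. Of the 10 listed tryptases and related proteases near Prss34, 7 had 0 counts, and Prss27 was the highest in B at 4.09 CPM per kilobase against 479 for Prss34. Reads shared between related genes could be split in counting in a way that is not stated.

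Among 12 other carboxypeptidase genes 7 had 0 counts. Cpe, which processes peptide hormones, had 145, 0.378 and 0.260 CPM in A against 292, 101.4 and 0 CPM in B. Its mean of 61.9 CPM per kilobase in B was close to the 56.5 of Cpa3, with far less constancy. Of the CD200 receptor family, Cd200r4 had counts only in B replicate 1 (2917) and Cd200r1 only in B replicate 3 (124), while Cd200r2 had 0. Among GATA factors Gata1 had counts only in B replicate 3 (641), and Gata3 reached 598 counts there and at most 4 elsewhere. Cd9 was joined by 13 further tetraspanin genes, each with counts, of which Cd53 was the highest in B at 628 CPM per kilobase against 702 for Cd9.

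**Figure D5:**
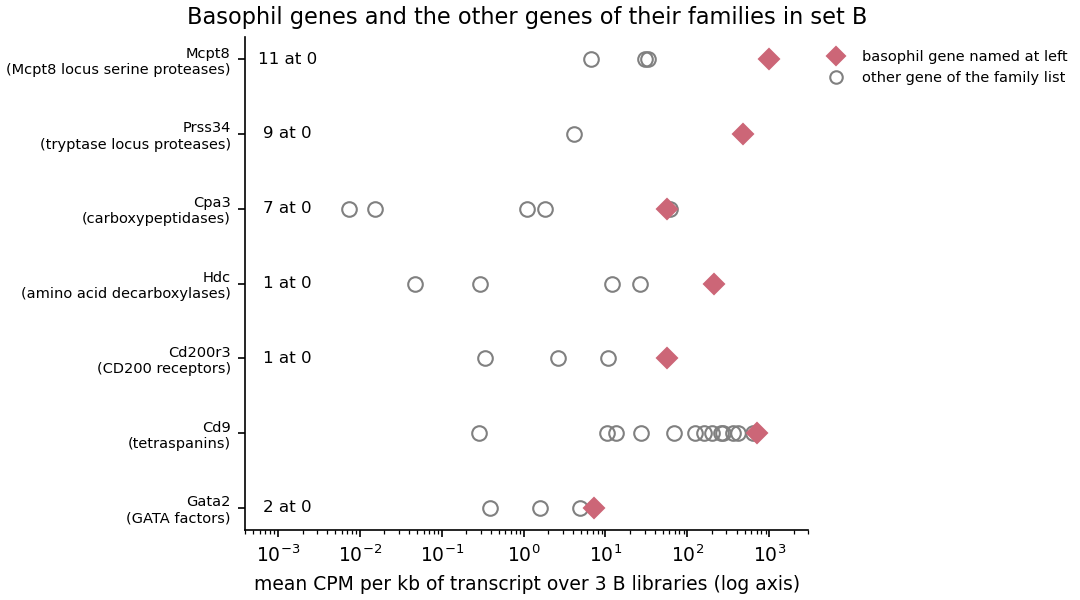
Mean CPM per kilobase of transcript over the 3 B libraries (log axis) of 6 families, and of the decarboxylases related to Hdc, with the basophil gene as a diamond and other listed genes as circles. Numbers at the left count genes at 0 in B. Mcpt8, at 1006 CPM per kilobase, and Prss34, at 479, lie far above the other genes of their families.

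Other genes were taken from 10 lists with 93 genes in all, none of them among the 7. The lists covered granule proteases and histamine handling, basophil transcription factors, basophil surface proteins and the gene families of the 7. Tetraspanins alone gave 12 of the tested genes, so the counts below do not describe basophil genes alone. Of the 38 that could be tested, 0 rose and 0 fell by edgeR's quasi-likelihood test with Benjamini-Hochberg adjustment at 0.05, where 0.0217% of all genes tested passed with higher values in B and 0.0% with lower. The 2 genes behind that share were Mcpt8 and Prss34, chosen on this contrast, so their calls support nothing. At p under 0.05 without adjustment 1 of the 38 was higher and 1 lower, against 5.05% and 1.32% of all genes. DESeq2 called 1 of the 38 higher (Fcer1a) and 0 lower, against 5.34% and 1.13% of all genes. The median log2 difference of these 38 was -0.29, against -0.06 over all genes tested. In the granule list, Srgn, which encodes the serglycin core that packs granule proteases, averaged 1982 ± 152 CPM over A (SD, n = 3) against 1594 ± 256 CPM over B. Its fitted log2 difference was -0.42, with SE 0.17 and an edgeR adjusted p = 0.711. Ndst2, an enzyme gene for the heparin chains of granules, was at 0.0726, 1.66 and 37.7 CPM over A and 54.0, 34.8 and 0 CPM over B. Slc18a2, which encodes the transporter that loads histamine into granules, had counts only in B replicate 3, at 6.75 CPM. Hnmt, which encodes an enzyme that breaks histamine down, was at 56.4 CPM in A replicate 3, 6.02 CPM in B replicate 3 and under 0.1 CPM elsewhere.

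Of 12 basophil transcription factors 7 could be tested and 0 passed by edgeR, none of them at an unadjusted p under 0.05 either. Irf8, Lyl1, Ikzf1 and Nfil3 were the most abundant, and all 4 overlapped between the sets. Irf8, a factor of myeloid and basophil progenitors, was at 219 to 487 CPM in A against 183 to 276 CPM in B. Nfil3, a leucine zipper factor, was at 0.145, 0.0757 and 63.2 CPM over A and 89.9, 29.1 and 75.2 CPM over B. Runx1, needed for basophils in mice, was at 81.8, 33.6 and 12.4 CPM in A against 0.121, 50.5 and 69.3 CPM in B. Cebpa, which acts with Gata2 in the choice of the basophil fate, had 826, 0 and 59 counts in A against 8, 0 and 479 in B. Of 19 surface genes 12 could be tested, 0 passed by edgeR, and the 1 with an unadjusted p under 0.05 was Fcer1a (216, 94.4 and 41.9 CPM in B, fitted log2 difference 11.90 with SE 2.62 and an edgeR adjusted p = 0.508). Fcer1g, the gamma chain shared by the IgE receptor and other Fc receptors, was the most abundant of the list, at 5327 to 5531 CPM over A and 4332 to 7247 CPM over B. Cd244a, a receptor gene of the SLAM family, was at 464, 408 and 471 CPM over A and 67.8, 340 and 191 CPM over B, with no overlap (fitted log2 difference -1.28 with SE 0.56 and an edgeR adjusted p = 0.869). Itgb1, the integrin partner of CD49b, overlapped between the sets, at 120.4 to 185 CPM over A and 14.8 to 161 CPM over B. Il3ra, the chain that binds IL-3, the main growth factor of basophils, gave 2, 2267 and 40 counts over A against 0, 0 and 596 over B. CD49b, a marker of the sort, is encoded by Itga2, which was at 0 counts throughout A and at 696, 1887 and 0 over B. The signalling beta chain Ms4a2 gave 0, 629 and 0 counts over A against 949, 1226 and 65 over B.

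The genes with the most similar pattern over the 6 libraries were ranked by the root mean square difference of log2(CPM + 1) after each gene's mean was subtracted, among genes with a mean of at least 10 CPM. Mcpt8 and Prss34 were each other's nearest gene (0.37), followed for both by Ly6a, a surface antigen gene (0.84 from Mcpt8, 0.75 from Prss34). Next came Arg2 for Mcpt8 (1.06) and Mfap3 for Prss34 (0.97). The nearest to Cpa3 were Gpd2, Ift22 and Prdx3 (0.17, 0.19 and 0.23), and Cd200r3 was its 63rd. The nearest to Cd200r3 were Adora2b, an adenosine receptor gene, Kbtbd4 and Prkx (0.22, 0.27 and 0.29). For Hdc they were Rad23b, Uqcrb and C1qb (0.39, 0.45 and 0.46), for Cd9 Rhoa, Srgn and Nap1l4 (0.10, 0.11 and 0.13), and for Gata2 Arl2, Ctc1 and Tbxas1 (0.33, 0.39 and 0.45). The distances are over 6 libraries that share the A and B split.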

How the data were processed

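The authors deposited raw counts per Ensembl gene, 1 column per library. Cutadapt 1.9, HISAT2 2.2.1 and DESeq2 are listed without roles, per the submitters' processing notes, and per the labels' protocols libraries were made with Smart-seq2, which amplifies cDNA without molecular identifiers, while the descriptions have 10x Genomics, which counts such identifiers. The sources used here name no counting program, build or annotation and no strand setting. Of 55401 identifiers 55141 matched a symbol.

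CPM used column totals. Sets were compared with edgeR 4.0.16 in R 4.3.3 (filterByExpr, TMM, glmQLFit with robust=TRUE, glmQLFTest, Benjamini-Hochberg over 9196 genes, threshold 0.05), and standard errors are the absolute log2 difference over the square root of F. Since libraries are not tied to animals, the p-values reflect library spread alone, possibly technical.

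The genes and lists were chosen with earlier results of these data known. Named beside them were, by rule, Fcer1a, Ms4a2, Il3ra and Itga2, up to 4 genes with the highest mean CPM per list and up to 3 per marker list with those at 0, and the 3 genes nearest in pattern to each. Slc18a2, Hnmt, Cebpa, Runx1, Cxcr2, Camp, Ngp, Ltf and genes at 0 or in 1 library were chosen after their values were seen. Alternatives were RLE scaling, no filter, library sizes without scaling, DESeq2 1.42.0, a replicate block, each library left out, and other lengths.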

Additional observations from a re-analysis of the deposited data

How the results depend on the processing

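DESeq2 called 491 genes higher and 104 lower in B, against 2 and 0 by edgeR, and 1 gene of the pathway lists higher, against 0. With each library left out edgeR called 0 to 1 genes higher in B, the 1 (Mcpt8) without B replicate 3. Same-numbered libraries did not deviate together (correlations of 0.03, -0.02 and 0.03), and with a replicate block edgeR called 0 genes higher. In that comparison 1 of 3 A libraries and 2 of 3 B libraries correlated best with their own number. With raw counts in place of counts per length, the mean log2 ratio to Mcpt8 in B was -3.45 for Cpa3, -0.70 for Hdc and 0.11 for Cd9. With the longest transcript as the length it was -6.32 for Cd200r3, and with coding length, also chosen after seeing the data, 0.23 for Cd9. For these ratios the length used is the only difference, and for the other changes the cause was not tested. The other 93 values for levels, ratios and counts moved by less than 1 SD between replicates, or by less than 1.5 times for counts of genes. For levels and ratios with a B library left out, this outcome was fixed in advance and shows no stability. Leaving out 1 of 3 libraries cannot move a mean by 1 SD of the same 3. Where that SD is wide single libraries still mattered. Leaving out a B library moved the mean log2 ratio to Mcpt8 between -9.08 and -6.43 for Gata2 and between -5.06 and -3.96 for Cd200r3, and the mean CPM in B between 12.97 and 33.8 for Gata2 and between 42.9 and 97.4 for Cd200r3. Of 77 refits of the 7 fitted differences, 76 moved by at most 1 SD between replicates, and Hdc without A replicate 3 (3.19) moved by more. With a library left out the fitted difference ran from 9.16 to 10.56 for Cd200r3. RLE scaling moved the median log2 difference of all genes to -0.16 and library size alone to 0.05, from -0.06, and Cd9 stayed below 0 in each. Depth limits the A values of Mcpt8, Prss34, Cpa3 and Cd200r3, which rest on 0 to 59 counts.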

Other observations

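Cd63, a tetraspanin of granule membranes that reaches the basophil surface on activation, had 0.544, 126 and 2.36 CPM in A replicates 1, 2 and 3 and 601, 116 and 153 CPM in B (fitted log2 difference 2.67 with SE 1.88 and an edgeR adjusted p = 1.00). A replicate 2 lay above the lowest B library. Eosinophil genes, which share part of the granulocyte programme of basophils, were uneven. Epx and Prg2 had 0 counts in every library, and Siglecf had 3294 counts in B replicate 1 and at most 8 elsewhere. Il5ra, the IL-5 receptor chain, had 0 counts in every A library and 189, 114 and 98 in B, with an edgeR adjusted p = 0.508. Counts of Ccr3 were found in A replicate 2 (669) and B replicate 3 (345) alone. Ddc, a decarboxylase related to Hdc, had 3420 counts in B replicate 1, 236 in A replicate 1 and at most 8 in the other 4 libraries.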
